A study of Mus musculus with 6 samples.

Results

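The Cyp2c genes encode cytochrome P450 enzymes of the mouse liver, and 10 of them were listed to be followed across hepatocyte classes and other liver cells in WT and SIRT7-/- mice. The list was Cyp2c29, Cyp2c37, Cyp2c38, Cyp2c39, Cyp2c44, Cyp2c50, Cyp2c54, Cyp2c68, Cyp2c69 and Cyp2c70. Of these, 9 had a column among the 16623 genes of the expression table. Cyp2c44 had none, and RefSeq gives that name as an older one of Cyp2c23, which had a column and is described beside the 9. Cyp2c40, Cyp2c55 and Cyp2c67 also had columns and were not listed. The list was drawn up with the difference between the genotypes in these same mice known, so every difference of a listed gene between WT and SIRT7-/- mice is given as a description, and the limma calls printed for them are no independent evidence.

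Cyp2c enzymes sit in the endoplasmic reticulum of hepatocytes, where they carry a heme group and receive electrons from P450 oxidoreductase. They oxidize drugs, steroids and fatty acids, and several of them turn arachidonic acid into epoxyeicosatrienoic acids. Cyp2c70 forms the muricholic acids of mouse bile, and many hepatic P450 genes are more active near the central vein of the lobule than near the portal vein.

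The livers came from 3 WT mice and 3 SIRT7-/- mice, all aged 5 to 6 months, the latter lacking the histone deacetylase SIRT7 and used by the study as a model of nonalcoholic steatohepatitis without a special diet. Each liver was perfused with collagenase, hepatocytes were pooled with as many nonparenchymal cells, and 1 droplet library with 3′ tags was made per mouse, in which each RNA molecule is counted once by its unique molecular identifier (UMI) whatever its length. Sex and strain of these mice are not given in the sources used here. Xist was found in all 6 libraries, at 24.8 to 104 counts per 10000 (CP10K) over all cells, and none of the Y-linked genes looked for (Ddx3y, Eif2s3y, Kdm5d and Uty) had a column.

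The libraries held 552 to 5609 cells and 2511947 to 11069411 UMIs. Sirt7, the deleted gene, averaged 0.718, 0.512 and 0.546 CP10K over all cells in WT mice 1, 2 and 3 and 0.100, 0.0814 and 0.139 CP10K in SIRT7-/- mice 1, 2 and 3, with no overlap. Clustering without the Cyp2c genes gave 10 clusters, of which 2 carried hepatocyte markers, hepatocyte 1-like with 1759 cells and hepatocyte 2-like with 1195 cells. Hepatocyte-like cells numbered 800, 513 and 99 in WT mice and 923, 284 and 335 in SIRT7-/- mice, and in SIRT7-/- mouse 3 they stood apart by their depth (median of 3291 UMIs, against 1214 to 1724 in the other mice) and by an 80.9% share of hepatocyte 2-like cells (18.7% to 45.5% elsewhere). In WT mouse 1 they held 62.5 CP10K of hemoglobin RNA, against 0.0450 to 3.55 CP10K in the other mice. Barcodes seen in more than 1 library numbered 13, and 6 of the 26 cells carrying them were hepatocyte-like.

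All 9 genes lie within 918 kb of chromosome 19 (GRCm38, 39269405 to 40187333), a stretch in which every protein-coding gene is a Cyp2c gene, 11 in all with Cyp2c67 and Cyp2c40. Along the chromosome the order is Cyp2c29, Cyp2c38, Cyp2c39, Cyp2c67, Cyp2c68, Cyp2c40, Cyp2c69, Cyp2c37, Cyp2c54, Cyp2c50 and Cyp2c70. Cyp2c37, Cyp2c54 and Cyp2c50 are direct neighbors from 39992424 to 40113950, with no other protein-coding gene between them, while Cyp2c23 lies apart at 44005022 to 44029208. The neighbors are also close in sequence, since the coding sequences of Cyp2c37 and Cyp2c50 were 96.1% identical, those of Cyp2c50 and Cyp2c54 95.2% and those of Cyp2c37 and Cyp2c54 95.1%, against a median of 78.8% over the 36 pairs of the 9 genes.

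The closeness limits how well 3′ reads can be told apart. Of the 90-base windows in the last 500 bases of each transcript, 0% of those of Cyp2c29, Cyp2c38, Cyp2c39 and Cyp2c70 occurred in a transcript of another gene. The share was 5.35% for Cyp2c37, 3.65% for Cyp2c50 and 8.27% for Cyp2c54, each shared within that group. It was 23.8% for Cyp2c69 and 28.0% for Cyp2c68, shared with Cyp2c40 and Cyp2c67, so that the split of reads among these 4 genes is uncertain.

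The promoters of 8 of the 9 genes were matched in RefSeq (GRCm38.p6), and 4 are printed, for 3 genes with large differences between the genotypes (Cyp2c50, Cyp2c37 and Cyp2c69) and for Cyp2c70, whose difference was smaller. Each line gives the 250 bases before the transcription start, 5′ to 3′ on the strand of the gene, with capitals for TATAAA, for the HNF4 site CAAAGTCCA and for the HNF6 core ATTGAT on either strand.
Cyp2c50, chr19:40089429-40089678, plus strand: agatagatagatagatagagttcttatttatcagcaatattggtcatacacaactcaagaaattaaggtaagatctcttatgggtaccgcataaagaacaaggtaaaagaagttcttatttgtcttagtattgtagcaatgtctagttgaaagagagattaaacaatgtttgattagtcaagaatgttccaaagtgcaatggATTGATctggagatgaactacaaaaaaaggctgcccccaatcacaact
Cyp2c37, chr19:39992174-39992423, plus strand: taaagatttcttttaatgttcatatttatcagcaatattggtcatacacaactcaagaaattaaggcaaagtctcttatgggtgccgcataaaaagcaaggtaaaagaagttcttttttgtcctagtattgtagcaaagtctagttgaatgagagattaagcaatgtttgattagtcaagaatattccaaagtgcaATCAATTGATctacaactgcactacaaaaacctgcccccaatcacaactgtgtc
Cyp2c69, chr19:39886770-39887019, minus strand: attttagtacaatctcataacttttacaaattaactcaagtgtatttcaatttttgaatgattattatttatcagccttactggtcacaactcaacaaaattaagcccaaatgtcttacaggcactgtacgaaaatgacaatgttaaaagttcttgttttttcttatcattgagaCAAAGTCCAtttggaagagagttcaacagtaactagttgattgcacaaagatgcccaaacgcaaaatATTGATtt
Cyp2c70, chr19:40187287-40187536, minus strand: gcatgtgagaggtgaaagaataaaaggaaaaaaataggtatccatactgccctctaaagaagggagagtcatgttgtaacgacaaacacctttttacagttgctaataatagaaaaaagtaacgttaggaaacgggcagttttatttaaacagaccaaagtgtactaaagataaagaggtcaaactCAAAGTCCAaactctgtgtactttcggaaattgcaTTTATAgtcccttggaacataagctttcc
The promoters of Cyp2c37 and Cyp2c50 were 84.3% identical and both held the HNF6 core, once in Cyp2c50 and as a pair of overlapping copies on opposite strands in Cyp2c37. The HNF6 core also stood in the promoters of Cyp2c68 and Cyp2c69 and occurred in 6.72% of the 32851 RefSeq promoters of this length. CAAAGTCCA stood in the promoters of Cyp2c68, Cyp2c69 and Cyp2c70, among the 9 promoter entries of 8 genes (Cyp2c39 has 2 entries), and in 0.384% of all promoters. The promoters of Cyp2c68 and Cyp2c69 were 91.3% identical. TATAAA stood in those of Cyp2c29, Cyp2c38 and Cyp2c70 and in 12.4% of all, GTTAAT (an HNF1 half-site) in those of Cyp2c68 and Cyp2c69 and in 6.43% of all, and AGGTCA (a nuclear receptor half-site) in those of Cyp2c29, Cyp2c39 and Cyp2c70 and in 14.0% of all. TTCNNNGAA (a STAT site), found in 7.02% of all promoters, and TTGCGCAA (a C/EBP site), found in 0.164%, were not found in these windows of the 8 genes.

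Cyp2c RNA was lower in the hepatocyte-like cells of SIRT7-/- mice, and the gap differed widely along the cluster. The summed level of the 9 genes was 27.5, 53.9 and 35.3 CP10K in WT mice and 7.64, 5.18 and 17.8 CP10K in SIRT7-/- mice, with no overlap. The means were 38.9 ± 13.6 and 10.2 ± 6.71 CP10K (SD, n = 3 mice each), a difference of -2.06 on the log2 scale (SE 0.60). These values rest on 546 to 6530 UMIs per WT mouse and 212 to 2361 UMIs per SIRT7-/- mouse.

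The neighbors Cyp2c50, Cyp2c54 and Cyp2c37, whose products belong to the arachidonic acid epoxygenases, had the largest differences after Cyp2c69, in groups that did not overlap. Cyp2c50 was at 4.11, 11.6 and 7.14 CP10K in WT mice and at 0.737, 0.337 and 0.492 CP10K in SIRT7-/- mice. The groups were far apart, with means 14.6-fold lower in SIRT7-/- mice (log2 difference of -3.68, SE 0.45). For single genes the SE is the moderated one of limma, which also draws on the spread of other genes. It can differ from the SE of the mice alone, which is given for the summed levels. Cyp2c54 was at 0.745, 3.31 and 2.65 CP10K in WT mice and at 0.226, 0.0370 and 0.102 CP10K in SIRT7-/- mice, the last from 31, 1 and 9 UMIs. Its log2 difference was -3.65 (SE 0.54). Cyp2c37 was at 1.19, 4.16 and 2.47 CP10K in WT mice and at 0.253, 0.0885 and 0.439 CP10K in SIRT7-/- mice. Its groups did not overlap either, with a log2 difference of -3.11 (SE 0.51).

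Cyp2c69 had the largest mean difference of the 9 genes, with the widest spread. It was at 2.90, 11.3 and 6.67 CP10K in WT mice and at 0.0125, 0.346 and 1.80 CP10K in SIRT7-/- mice, where SIRT7-/- mouse 1 gave 3 UMIs over 923 cells and SIRT7-/- mouse 3 gave 248 UMIs over 335 cells. The groups did not overlap, and the log2 difference was -4.08 (SE 1.08). Cyp2c68 and Cyp2c40 were at lower levels than Cyp2c69 in WT mice. Cyp2c40 shared 3′ windows with both Cyp2c69 and Cyp2c68, which shared none with each other. Cyp2c68 was at 0.683, 2.25 and 1.11 CP10K in WT mice and at 0.219, 0.262 and 1.15 CP10K in SIRT7-/- mice (log2 difference of -1.43, SE 0.55), so that SIRT7-/- mouse 3 lay among the WT mice. Cyp2c40, not on the list, was at 1.65, 4.29 and 1.52 CP10K in WT mice and at 0.109, 0.342 and 2.23 CP10K in SIRT7-/- mice, again with SIRT7-/- mouse 3 among the WT values (log2 difference of -2.12, SE 0.77).

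Cyp2c29, the most abundant member, was at 6.78, 9.46 and 9.31 CP10K in WT mice and at 2.66, 1.56 and 7.48 CP10K in SIRT7-/- mice. Only SIRT7-/- mouse 3 reached into the WT range, and the log2 difference was -1.40 (SE 0.52). Cyp2c70 was at 7.88, 7.83 and 4.04 CP10K in WT mice and at 1.86, 1.20 and 4.22 CP10K in SIRT7-/- mice, with SIRT7-/- mouse 3 above the lowest WT mouse (log2 difference of -1.55, SE 0.50). Both genes have 3′ ends of their own, so their reads are not shared within the family.

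Cyp2c38 and Cyp2c39, which lie side by side next to Cyp2c29, were closest to WT. Cyp2c39, which can hydroxylate retinoic acid, was at 2.80, 2.63 and 1.16 CP10K in WT mice and at 1.31, 0.779 and 1.20 CP10K in SIRT7-/- mice (log2 difference of -0.90, SE 0.43). Cyp2c38 was at 0.447, 1.42 and 0.749 CP10K in WT mice and at 0.362, 0.570 and 0.958 CP10K in SIRT7-/- mice, with a log2 difference of -0.39 (SE 0.46) that was within its SE and that turned to 0.01 without WT mouse 2. Outside the list, the log2 difference was -0.69 (SE 0.49) for Cyp2c67 and -0.75 (SE 0.48) for Cyp2c23, both with overlapping groups, and Cyp2c55, an intestinal member, was too low to be compared, with 0 to 13 UMIs per mouse.

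**Figure D1:**
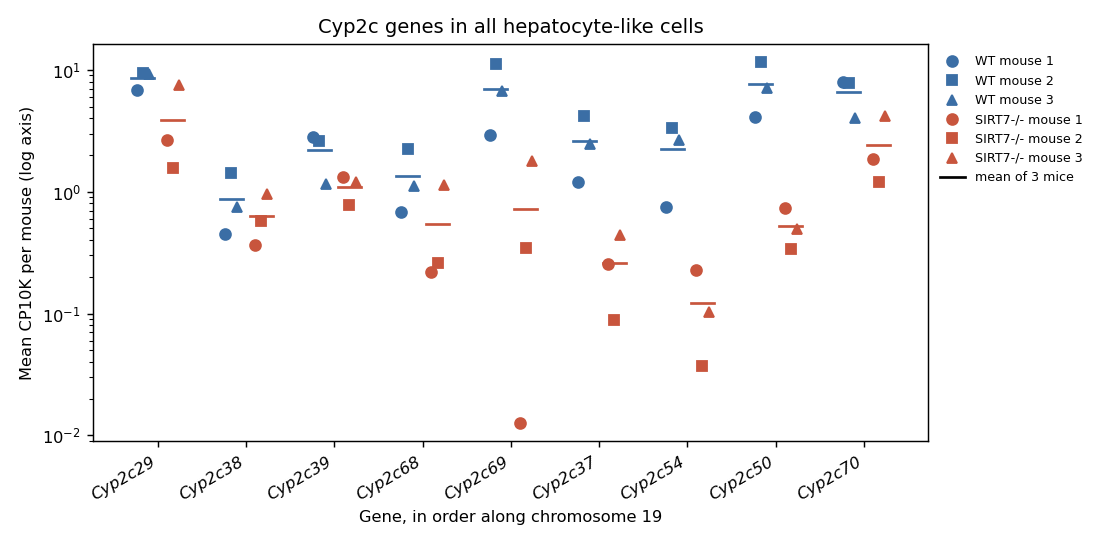
Mean CP10K per mouse on a log axis for the 9 listed Cyp2c genes with a column, in all hepatocyte-like cells, in order along chromosome 19; each point is 1 mouse and the short line is the mean of 3 mice. The SIRT7-/- mice lie below every WT mouse for Cyp2c69, Cyp2c37, Cyp2c54 and Cyp2c50, and SIRT7-/- mouse 3 lies among or near the WT mice for Cyp2c29, Cyp2c38, Cyp2c39, Cyp2c68 and Cyp2c70.

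All 9 genes had a lower mean in SIRT7-/- mice, and in 4 of them every SIRT7-/- mouse lay below every WT mouse, as did 3.26% of the 9854 genes compared. With limma over all genes, 3 of the 9 (Cyp2c37, Cyp2c50 and Cyp2c54) were among the genes called lower at a Benjamini-Hochberg adjusted p under 0.05, a call made for 0.0913% of all genes. Because the members were chosen on this contrast, these counts are given as descriptions. The median log2 difference of the 9 genes was -1.55, against 0.16 over all genes compared. Without WT mouse 3 limma called 0 of the 9 (3 of all 9776 genes were called lower). Of the 9, 6 then had an unadjusted p under 0.05 and a lower level (as did 212 of all 9776 genes). Without SIRT7-/- mouse 3 limma called Cyp2c37, Cyp2c50 and Cyp2c69 (8 of all 9649 genes were called lower). With mice paired by number in a replicate block it called Cyp2c50 alone of the 9 (13 of all 9854 genes were called lower).

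The make-up of the family differed between the genotypes. In WT mice Cyp2c37, Cyp2c54 and Cyp2c50 together made up 21.9%, 35.4% and 34.8% of the summed level, and in SIRT7-/- mice 15.9%, 8.92% and 5.80%. The groups did not overlap, with means of 30.7% ± 7.58 and 10.2% ± 5.18 (SD, n = 3 mice each). This grouping was made after the values were seen. The share of Cyp2c69, outside this grouping, was also lower, at 10.5%, 20.9% and 18.9% in WT mice and 0.164%, 6.69% and 10.1% in SIRT7-/- mice, without overlap. The share of Cyp2c29 went the other way, from 24.6%, 17.5% and 26.4% in WT mice to 34.8%, 30.04% and 41.9% in SIRT7-/- mice. The share of Cyp2c38 was 1.62%, 2.64% and 2.12% in WT mice and 4.74%, 11% and 5.37% in SIRT7-/- mice, also without overlap.

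**Figure D2:**
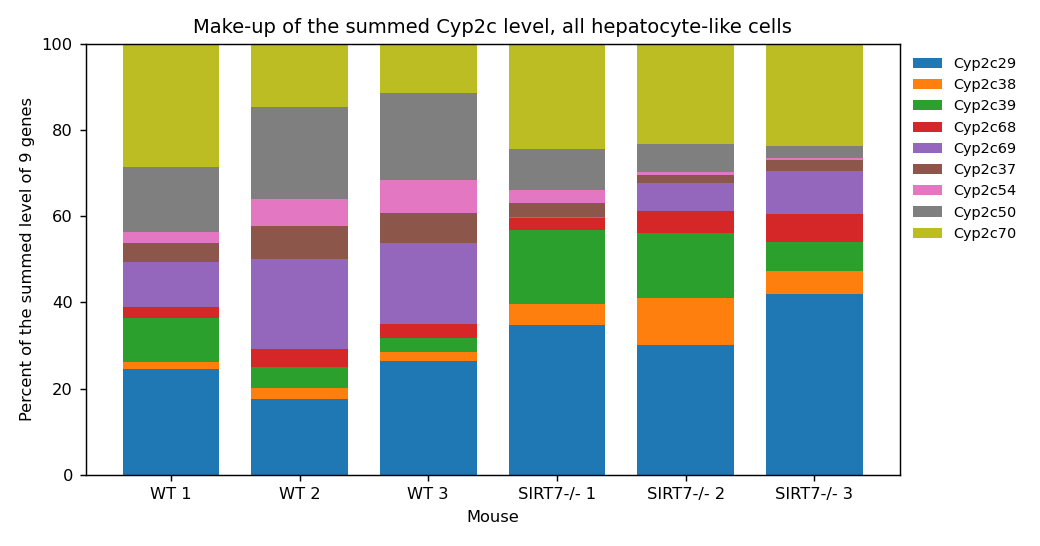
Percent of the summed CP10K of the 9 genes held by each gene in all hepatocyte-like cells, 1 bar per mouse. Cyp2c37, Cyp2c54 and Cyp2c50 together take 21.9% to 35.4% of the bar in WT mice and 5.80% to 15.9% in SIRT7-/- mice.

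The order of the levels differed between the genotypes. In WT mice Cyp2c29 (8.52 ± 1.502 CP10K), Cyp2c50 (7.61 ± 3.76), Cyp2c69 (6.94 ± 4.18) and Cyp2c70 (6.58 ± 2.21) led, and neighbors in this order differed by less than their SD over 3 mice. Cyp2c37 (2.61 ± 1.49 CP10K), Cyp2c54 (2.24 ± 1.33), Cyp2c39 (2.20 ± 0.902), Cyp2c68 (1.35 ± 0.812) and Cyp2c38 (0.873 ± 0.501) followed, and of these neighbors only Cyp2c39 and Cyp2c68 differed by more than an SD, that of Cyp2c68. In SIRT7-/- mice Cyp2c29 (3.90 ± 3.15 CP10K) and Cyp2c70 (2.43 ± 1.58) led by their means, and Cyp2c50 (0.522 ± 0.202), Cyp2c37 (0.260 ± 0.176) and Cyp2c54 (0.122 ± 0.0957) came last. Cyp2c68 (0.542 ± 0.523) differed from Cyp2c50 by less than an SD, and the order differed between mice. In SIRT7-/- mouse 1 Cyp2c50 (0.737 CP10K) stood above Cyp2c38 (0.362 CP10K), and Cyp2c69 (0.013 CP10K) was lowest.

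Counted per cell, fewer hepatocyte-like cells carried Cyp2c RNA in SIRT7-/- mice. Cells were thinned to 1000 UMIs each, which left out 241 of 1412 WT and 381 of 1542 SIRT7-/- cells. A UMI of any of the 9 genes was then found in 91.6%, 95.6% and 84.8% of cells of WT mice and in 47.5%, 35.5% and 76.7% of cells of SIRT7-/- mice (97.1%, 97.9%, 90.9%, 55.8%, 44.7% and 94.9% before thinning). A UMI of Cyp2c37, Cyp2c54 or Cyp2c50 was found in 40.3%, 78.1% and 59.1% of cells of WT mice and in 10.5%, 4.06% and 6.92% of cells of SIRT7-/- mice (58.5%, 87.9%, 65.7%, 13.7%, 6.34% and 27.8% before thinning). Macrophage-like cells, in which these RNAs are not known to be made, gave 6.00%, 9.76% and 15.3% in WT and 2.04%, 0.812% and 1.25% in SIRT7-/- mice for the same 3 genes after thinning. Other classes gave more in WT mice. T-like cells gave 12.2%, 26.1% and 21.8% in WT and 1.93%, 0.536% and 3.23% in SIRT7-/- mice. In each mouse both classes were below the share in hepatocyte-like cells. The 24 B-like cells of WT mouse 1 gave 33.3%, against 40.3% in hepatocyte-like cells of that mouse. The median depth before thinning was 2101 to 6494 UMIs in macrophage-like and 1214 to 3291 UMIs in hepatocyte-like cells.

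The hepatocyte classes could not be read as zones of the lobule, since the zone landmarks were mixed between them. Of 15 pericentral landmarks, 5 were higher in hepatocyte 1-like cells in all 6 mice (Oat, Rgn and Aldh1a1 among them) and 3 were higher in hepatocyte 2-like cells in all 6 (Tbx3, Gulo and Cyp27a1). Of 15 periportal landmarks, 2 were higher in hepatocyte 1-like cells in all 6 mice (Ass1 and Aldh1b1) and 2 in hepatocyte 2-like cells (Pck1 and G6pc). The classes differed widely in RNA that stays in the nucleus, looked at after its values were seen. Xist was at 0.17 to 3.73 CP10K in the hepatocyte 1-like class and at 161 to 241 CP10K in the hepatocyte 2-like class over the 6 mice, and Malat1 at 0.398 to 19.9 and 299 to 532 CP10K. The part of this difference in the values by class was not tested, and hepatocyte 1-like cells also had none of their markers among their 10 leading genes, which included hemoglobin genes and Cyp2c50.

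Across the classes the genotype difference of Cyp2c genes was alike in direction. In hepatocyte 1-like cells the summed level was 26.3, 57.0 and 24.4 CP10K in WT mice and 6.22, 4.55 and 15.9 CP10K in SIRT7-/- mice. In hepatocyte 2-like cells it was 29.4, 41.4 and 48.3 CP10K in WT mice and 9.46, 7.92 and 18.3 CP10K in SIRT7-/- mice. Neither class had overlapping groups, and the log2 differences were -2.11 (SE 0.67) and -1.80 (SE 0.42). For 4 of the 9 genes every SIRT7-/- mouse lay below every WT mouse in hepatocyte 1-like cells (8.48% of all genes did) and limma called 2 lower, Cyp2c50 and Cyp2c54 (0.362% of all genes). In hepatocyte 2-like cells 5 of the 9 had no overlap (4.04% of all genes) and the same 2 genes were called lower (0.156% of all genes). In hepatocyte 1-like cells the calls were 1 without WT mouse 3 (42 of all 8405 genes were called lower) and 4 without SIRT7-/- mouse 3 (132 of 8630). The hepatocyte 2-like class gave 1 without WT mouse 2, WT mouse 3 or SIRT7-/- mouse 2 (8 of all 10338, 6 of 10257 and 8 of 10181 genes were called lower). It gave 6 without SIRT7-/- mouse 3 (78 of all 10189 genes were called lower).

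Cyp2c50 was at 5.11, 12.8 and 6.32 CP10K in hepatocyte 1-like cells of WT mice and at 0.698, 0.355 and 0.872 CP10K in those of SIRT7-/- mice. In hepatocyte 2-like cells it was at 2.60, 6.57 and 8.13 CP10K in WT and at 0.787, 0.259 and 0.403 CP10K in SIRT7-/- mice. The log2 differences, -3.52 (SE 0.37) and -3.42 (SE 0.46), lay within an SE of each other. Cyp2c29 had no overlap in hepatocyte 1-like cells, with 7.82, 9.79 and 4.99 CP10K in WT and 1.56, 1.34 and 4.26 CP10K in SIRT7-/- mice, but overlapped in hepatocyte 2-like cells, with 5.23, 8.11 and 14.5 CP10K and 4.08, 2.50 and 8.24 CP10K. Cyp2c70 was the reverse, overlapping in hepatocyte 1-like cells and separate in hepatocyte 2-like cells, where it was at 11.9, 6.25 and 6.52 CP10K in WT and at 1.99, 1.95 and 4.43 CP10K in SIRT7-/- mice.

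The difference of the genotype difference between the classes, taken within each mouse, ranged from -2.10 (SE 0.88) for Cyp2c69 to 0.83 (SE 0.69) for Cyp2c29. Cyp2c69 stood apart, as its log2 difference was -3.36 (SE 1.63) in the hepatocyte 1-like and -5.46 (SE 1.51) in the hepatocyte 2-like class. In hepatocyte 2-like cells Cyp2c69 had 1 UMI in 404 cells of SIRT7-/- mouse 1 and 0 in 53 cells of SIRT7-/- mouse 2, and its log2 difference was -4.67 without the former and -4.59 without the latter. Cyp2c37 and Cyp2c54 also had 0 UMIs in SIRT7-/- mouse 2, a count that allows up to 0.457 CP10K (3 UMIs of 65672). For Cyp2c54 this is above the 0.428 CP10K of WT mouse 1, so its lack of overlap in this class is not firm. Over the 8229 genes compared in both classes limma called 0 for this difference at an adjusted p under 0.05, with 961 at an unadjusted p under 0.05. Within a mouse, Cyp2c38 was higher in hepatocyte 2-like cells in 6 of 6 mice.

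**Figure D3:**
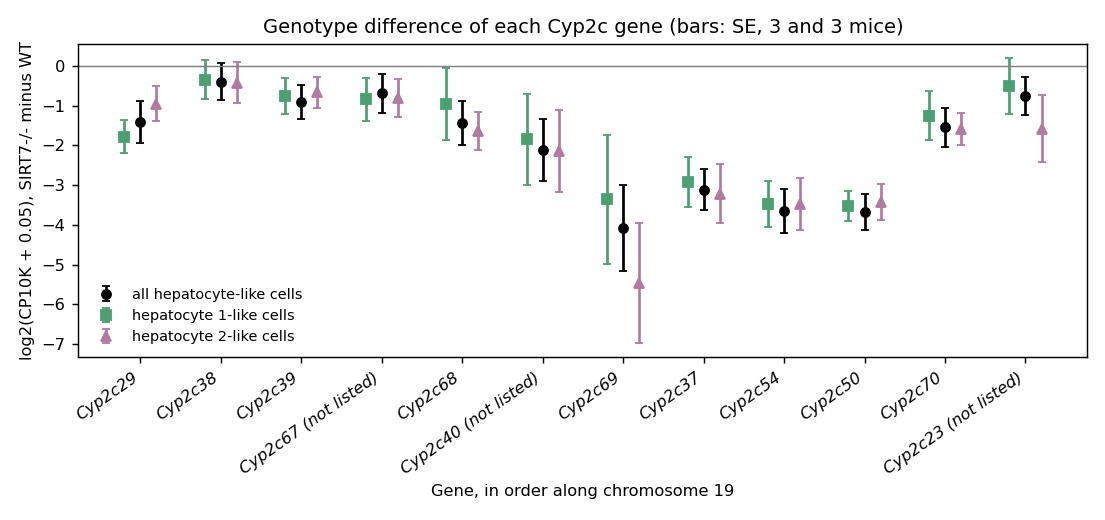
Difference of log2(CP10K + 0.05), SIRT7-/- minus WT, for each Cyp2c gene with enough counts, in order along chromosome 19, in all hepatocyte-like cells (circles), hepatocyte 1-like cells (squares) and hepatocyte 2-like cells (triangles). Bars are the moderated SE of limma for 3 and 3 mice, which also draws on the spread of other genes. All points lie below 0, the lowest at Cyp2c69 and at the neighbors Cyp2c37, Cyp2c54 and Cyp2c50, where all 3 sets of cells lie near or below -3.

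Zones were also approached cell by cell, by the share of pericentral landmarks among the UMIs of all zone landmarks, with the cells of each mouse split into 3 ranges of about equal size (periportal, middle and pericentral). Of the hepatocyte-like cells, 2649 had 10 or more such UMIs, and 1282 of them lay within 0.05 of a cut, so these are ranges and not cell types. The pericentral range held 691 hepatocyte 1-like cells of 857, and the periportal range 245 of 888, and the part of this in the differences between the ranges was not tested. In all 6 mice Cyp2c29, Cyp2c37, Cyp2c39, Cyp2c50, Cyp2c54 and Cyp2c69 had the higher mean in the pericentral range. Where the periportal range held 0 UMIs (Cyp2c69 in SIRT7-/- mice 1 and 2, Cyp2c37 and Cyp2c54 in SIRT7-/- mouse 2), no order is shown. Cyp2c29 was 0.62, 0.71 and 0.72 higher than in the periportal range on the log2 scale in WT mice and 0.11, 0.55 and 0.51 higher in SIRT7-/- mice. Cyp2c50 was 0.98, 0.76 and 1.16 higher in WT and 1.49, 2.22 and 1.27 higher in SIRT7-/- mice. Cyp2c70 and Cyp2c68 showed no such order, with Cyp2c70 higher in the pericentral range in 1 and Cyp2c68 in 2 of 6 mice. Of the landmarks, which enter the share themselves, Cyp2e1 and Glul were higher there in 6 of 6 mice and Cyp2f2 in 0. Ass1, a periportal landmark, was higher there in 3 of 6 mice, and Alb, not a landmark, in 5 of 6. Whether the order of the Cyp2c genes follows the zones was not tested.

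The genotype difference was present in both outer ranges, with the SE here taken from the mice alone. The cuts were made within each mouse, on landmarks that could differ between the genotypes themselves. In the pericentral range Cyp2e1 differed by -1.35 (SE 0.45) and Glul by 2.07 (SE 1.19) on the log2 scale. A range thus need not hold the same kind of cells in both genotypes. The summed level of the 9 genes differed by -1.99 (SE 0.44) in the periportal and by -1.95 (SE 0.54) in the pericentral range on the log2 scale. For Cyp2c50 the values were -4.19 (SE 0.66) and -3.50 (SE 0.48), and for Cyp2c70 -1.41 (SE 0.50) and -1.36 (SE 0.58).

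**Figure D4:**
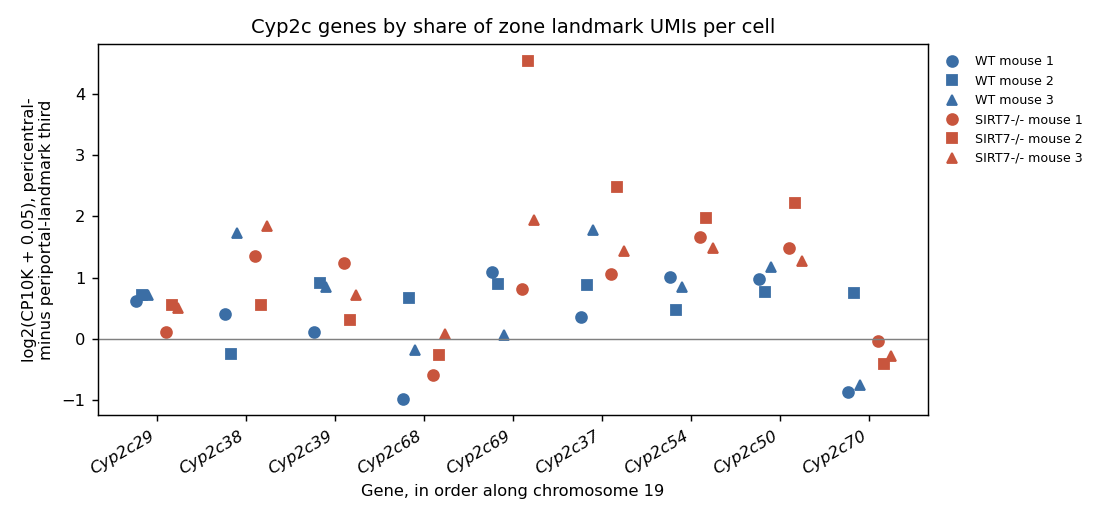
Difference of log2(CP10K + 0.05) between the ranges of hepatocyte-like cells richest in pericentral and in periportal landmark UMIs, for the 9 genes in each of 3 WT (blue) and 3 SIRT7-/- mice (red). Points above 0 are higher in the pericentral range, and where the periportal level is 0 (Cyp2c69, Cyp2c37 and Cyp2c54 in SIRT7-/- mice) their height depends on the offset, while 5 of 6 mice lie below 0 for Cyp2c70.

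Outside the hepatocytes, Cyp2c UMIs were found in the other classes beside the RNA of hepatocyte products (Alb, Apoa1, Apoa2, Apoc3, Ttr, Trf, Serpina1c, Ambp, Rbp4 and Fabp1) that these cells do not make. In macrophage-like cells the 9 genes summed to 5.60, 4.67 and 3.51 CP10K in WT mice and to 1.04, 0.259 and 2.14 CP10K in SIRT7-/- mice. That was 20.3%, 8.66%, 9.96%, 13.6%, 5.00% and 12.02% of the level in hepatocyte-like cells of the same mouse. The hepatocyte products stood at 22.5%, 18.3%, 13.8%, 13.1%, 2.99% and 16.5% of their hepatocyte level in the same cells and order. The share of Cyp2c37, Cyp2c54 and Cyp2c50 in the Cyp2c sum of macrophage-like cells was 19.3%, 34.7% and 44.0% in WT and 18.2%, 18.0% and 10.6% in SIRT7-/- mice. Over all 32 pairs of other class and mouse, the Cyp2c sum was 4.78% to 44.8% and the products 2.31% to 61.6% of the hepatocyte level. The 2 shares were not alike throughout. In T-like cells of WT mouse 2 they were 15.0% for Cyp2c (325 UMIs) and 24.6% for products. In endothelial-like cells of SIRT7-/- mouse 2 they were 20.7% for Cyp2c and 7.56% for products, but that Cyp2c value rests on 9 UMIs in 57 cells. No genotype difference was tested in these classes, and whether RNA free in the droplets gives these levels was not tested.

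**Figure D5:**
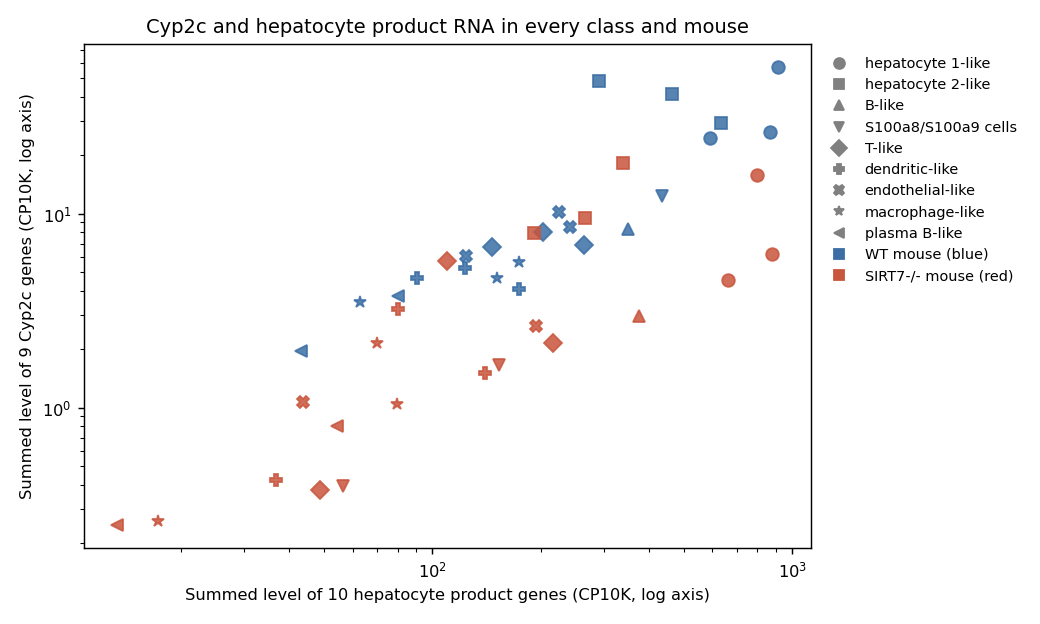
Summed CP10K of the 9 Cyp2c genes against that of 10 hepatocyte product genes, on log axes, for every cell class and mouse with 20 or more cells; the shape marks the class, WT mice are blue and SIRT7-/- mice are red. In macrophage-like cells the Cyp2c sum was 3.51 to 5.60 CP10K in WT and 0.259 to 2.14 CP10K in SIRT7-/- mice.

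Several hepatocyte products were also at lower mean levels in hepatocyte-like cells of SIRT7-/- mice. Alb, the albumin gene, had means of 121.7 and 50.6 CP10K in WT and SIRT7-/- mice (log2 difference of -1.29). The log2 difference was -0.83 for Apoa2 and -0.72 for Ttr, and the median over the 10 product genes was -0.77. Fabp1 went the other way, with means of 138.6 and 233.8 CP10K, and weighs on the sum. The 10 product genes summed to 773, 824 and 455 CP10K in WT and to 610, 576 and 426 CP10K in SIRT7-/- mice, with overlap (log2 difference of -0.32). Per 1000 CP10K of these products, the 9 Cyp2c genes were at 35.6, 65.4 and 77.6 in WT mice and at 12.5, 8.99 and 41.8 in SIRT7-/- mice, so that SIRT7-/- mouse 3 then lay above WT mouse 1. Cyp2c37, Cyp2c54 and Cyp2c50 together were at 7.82, 23.1 and 27.0 in WT mice and at 1.99, 0.802 and 2.43 in SIRT7-/- mice. These 3 genes were grouped after their low values in the same mice were seen, so the lack of overlap is a description only.

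Other genes of the P450 system were read from lists in the same limma comparison, in which 206 of all 9854 genes were lower and 529 higher at an unadjusted p under 0.05 in all hepatocyte-like cells and which called 0.0203% of all genes higher in all hepatocyte-like cells, 0.14% in the hepatocyte 1-like and 0.107% in the hepatocyte 2-like class. Of 32 other P450 genes of families 1 to 4, limma called 0 in all hepatocyte-like cells, with 10 lower and 1 higher at an unadjusted p under 0.05, and their median log2 difference was -0.85 against 0.16 over all genes. Cyp2e1, the ethanol-oxidizing P450, was at 14.6 ± 5.41 CP10K in WT and 5.45 ± 1.11 CP10K in SIRT7-/- mice there. It fell in hepatocyte 1-like cells (limma, Benjamini-Hochberg adjusted p = 0.0326), a call lost in 10 of 18 alternatives, among them those without WT mouse 2 or 3 and without SIRT7-/- mouse 2 or 3. Cyp3a11, a main drug-oxidizing P450, rose in hepatocyte 2-like cells, from 5.72 to 19.2 CP10K (limma, adjusted p = 0.0498), a call lost in 10 of 18 alternatives, among them those leaving out WT mouse 1, 2 or 3 or SIRT7-/- mouse 1 or 2. These P450 genes thus included values above as well as below WT.

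The partners of P450 enzymes and the heme pathway gave 0 calls in 14 genes in all hepatocyte-like cells with limma, 2 of them lower at an unadjusted p under 0.05. Pgrmc1, a heme-binding partner of P450 enzymes, was at 9.38, 12.2 and 5.87 CP10K in WT and at 2.77, 1.99 and 5.32 CP10K in SIRT7-/- mice (adjusted p = 0.459 with limma). Cyb5a, which passes electrons to P450 enzymes, was at 25.1 CP10K in WT and 25.5 CP10K in SIRT7-/- mice.

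Of 23 regulators of hepatic P450 genes, 0 were called in all hepatocyte-like cells with limma, with 2 higher at an unadjusted p under 0.05. Nr1i3, which encodes the nuclear receptor CAR, was at 5.27, 5.02 and 14.3 CP10K in WT and at 5.00, 4.09 and 7.51 CP10K in SIRT7-/- mice. Hnf4a, a master regulator of hepatocyte genes, was at 1.90 ± 0.319 and 2.04 ± 0.0685 CP10K, a log2 difference of 0.11 (SE 0.37).

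In all hepatocyte-like cells limma called 0 of 10 genes of epoxide and arachidonic acid handling and 0 of 14 genes of bile acid synthesis beside Cyp2c70. At an unadjusted p under 0.05 in limma, 1 gene was higher in the first list and 2 were lower in the second. Ephx2, the soluble epoxide hydrolase, was at 4.41 CP10K in WT and 4.72 CP10K in SIRT7-/- mice. Fabp1, a fatty acid carrier, rose in hepatocyte 1-like cells, from 181 to 406 CP10K (limma, adjusted p = 0.00014), and was lost among the alternatives with the replicate block alone (adjusted p = 0.101). Cyp7a1, the rate-limiting enzyme of bile acid synthesis, was at 4.05 CP10K in WT and 4.78 CP10K in SIRT7-/- mice, a log2 difference of 0.15 (SE 0.99).

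Of 13 genes that are higher in female than in male liver, limma called 2 lower in all hepatocyte-like cells, Hao2 among them, and 0 higher, with 5 lower at an unadjusted p under 0.05. Hao2, a hydroxyacid oxidase, was at 1.40, 1.16 and 0.898 CP10K in WT and at 0.0835, 0.238 and 0.197 CP10K in SIRT7-/- mice (limma, adjusted p = 0.0239), a call lost in 11 of 18 alternatives, among them those leaving out WT mouse 1, 2 or 3 or SIRT7-/- mouse 1 or 3. Sult2a1, a sulfotransferase, fell in both hepatocyte classes, from 33.5 to 10.1 CP10K in hepatocyte 1-like cells (limma, adjusted p = 0.00484, and 0.266 with the replicate block) and from 13.7 to 2.21 CP10K in hepatocyte 2-like cells (limma, adjusted p = 0.0126), the latter lost without WT mouse 1 or 2 or SIRT7-/- mouse 2. Of 13 genes higher in male liver, 0 were called in all hepatocyte-like cells, with 3 lower and 1 higher at an unadjusted p under 0.05 in limma. The median log2 difference in all hepatocyte-like cells was -0.87 for the female-biased and -0.64 for the male-biased list. The medians were -1.43 and -0.74 in hepatocyte 1-like cells (-0.10 over all genes) and -2.01 and -0.70 in hepatocyte 2-like cells (0.20 over all genes).

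Of 12 genes of dissociation and stress, 5 fell in hepatocyte 2-like cells with limma, where Fos went from 2.08 to 0.123 CP10K, Junb from 6.52 to 0.622 CP10K and Ier2 from 13.8 to 1.67 CP10K (adjusted p = 0.0292, 0.000935 and 0.000998). Fos and Junb were lost without WT mouse 3, and Fos also without WT mouse 1 or SIRT7-/- mouse 2. The calls of Egr1 and Btg2, the other two, were lost without WT mouse 1, WT mouse 3 or SIRT7-/- mouse 2, and Egr1 also without WT mouse 2. Over all hepatocyte-like cells limma called 0 of 11 genes of this list, with 6 lower at an unadjusted p under 0.05. Limma called 0 of 12 genes of this list in the hepatocyte 1-like class, with 1 lower and 2 higher at an unadjusted p under 0.05. Of 12 acute phase, 10 hepatocyte product and 4 hemoglobin genes, 0 were called in all hepatocyte-like cells with limma, with 4, 2 and 0 lower and 1, 0 and 0 higher at an unadjusted p under 0.05. The part of these lists, and of the hemoglobin in WT mouse 1, in the Cyp2c differences was not tested. Cells over 1% hemoglobin numbered 9 of the 2954 hepatocyte-like cells. The summed Cyp2c difference was -2.07 without these cells and -2.29 without WT mouse 1.

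The genes outside the family whose level followed the summed Cyp2c level most closely over the 6 mice were Cpb2 (Pearson r = 0.988), Ces1g (0.983), Tmbim4 (0.981) and Ugt2a3 (0.980), out of 3242 genes at 0.5 CP10K or more. The 6 points share their libraries with the Cyp2c values. Ces1g, a carboxylesterase, was at 1.74, 3.15 and 1.62 CP10K in WT and at 0.530, 0.405 and 0.905 CP10K in SIRT7-/- mice.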

How the data were processed

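Single-cell RNA sequencing was done on livers of 3 WT and 3 SIRT7-/- mice. Per the labels and methods, reads were processed with Cell Ranger 6.0.0 against mm10, cells with few genes or many mitochondrial reads were removed, and the values deposited by the authors are the natural log of counts per 10000 plus 1, ln(CP10K + 1). UMIs were recovered from these values (12961041 of 12961041 values above 0 were whole within 0.02). Depth was 2511947 to 11069411 UMIs per mouse, and intervals and floors cover counting error only. Cell types are absent from the table. Using scanpy 1.11.5, 1000 variable genes without Cyp2c genes, 50 principal components, 3 neighbors per mouse and leidenalg 0.10.2 (resolution 0.35) gave 10 clusters, named from marker lists. CP10K were averaged per mouse and class (20 or more cells), a gene needed a mean of 0.05 CP10K or more, and log2(mean + 0.05) was compared with limma 3.58.1 (R 4.3.3, two-sided, trend and robust, Benjamini-Hochberg adjustment, threshold 0.05). This offset understates the change of low genes. The SE of a single gene is the moderated one of limma, while summed levels and zone ranges have the SE of the mice alone. The fit was tested on simulated data. Scrublet marked 46 of 11610 cells (0.396%), too few to count as a working doublet call. The mice are taken as separate animals from their labels. Members and gene lists were chosen with earlier results of these data known. Named were all Cyp2c genes, every list gene past the threshold, otherwise the most abundant of each list, and the 5 genes most like the Cyp2c sum. A few genes that this rule names are not reported here. Xist, Malat1, Neat1 and the grouping of Cyp2c37, Cyp2c54 and Cyp2c50 were chosen after their values were seen. Deviations of same-numbered mice were weakly correlated in all hepatocyte-like cells (r = 0.109, 0.217 and 0.127 over 3254 genes). The values were 0.119, -0.222 and -0.319 in hepatocyte 1-like and -0.0901, -0.0348 and -0.149 in 2-like cells. Whether the mice were paired by number is thus not shown, and a replicate block was used as an alternative.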

Additional observations from a re-analysis of the deposited data

How the results depend on the processing

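The summed Cyp2c level was lower in SIRT7-/- mice under every alternative run. Its log2 difference ranged over the mice left out in turn from -2.56 to -1.68 in all hepatocyte-like cells, from -2.63 to -1.72 in the hepatocyte 1-like class and from -2.16 to -1.56 in the hepatocyte 2-like class. Of 486 alternative values of single Cyp2c genes, 471 stayed within the spread, 11 moved and 4 changed sign, all of them of Cyp2c38. Over the mice left out, Cyp2c38 ranged from -0.77 to 0.01 in all hepatocyte-like cells (0.01406 at the top, without WT mouse 2), from -0.73 to 0.14 in the hepatocyte 1-like class (top without WT mouse 2) and from -0.92 to 0.12 in the hepatocyte 2-like class (top without WT mouse 2, and 0.03 on leaving out SIRT7-/- mouse 1). The number of genes called by limma depended on the settings. In all hepatocyte-like cells it was 11, and became 7 with thinned cells, 4 without genes under 0.5 CP10K, 3 with means of the ln values, 3 without a filter, 3 with an offset of 0.5 CP10K, 4 with voom and 3 to 29 with a mouse left out. In hepatocyte 1-like cells it was 43, and became 165 with thinned cells, 21 without genes under 0.5 CP10K, 24 with means of the ln values, 67 without a filter, 446 with voom and 19 to 149 with a mouse left out. In hepatocyte 2-like cells it was 27, and became 53 with thinned cells, 10 when centred on the median gene, 15 with means of the ln values, 12 without a filter, 42 with an offset of 0.5 CP10K, 113 with voom and 7 to 131 with a mouse left out. With mice paired by number in a replicate block it was 16, 2 and 73 in the 3 sets of cells, and the summed differences stayed at -2.06, -2.11 and -1.80. The Cyp2c genes called were 1, 0 and 4. In the hepatocyte 1-like class 5 of them were lower at an unadjusted p under 0.05 with limma, as were 415 of all 8569 genes. The causes of these changes were not tested. Leaving out cells with 5 or more UMIs of markers of other classes, chosen after seeing the data, gave 11, 37 and 27 genes. Small cell numbers limit the precision, as with 99 hepatocyte-like cells in WT mouse 3 and 45 and 53 hepatocyte 2-like cells in WT mouse 3 and SIRT7-/- mouse 2.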
